A study of Mus musculus with 4 samples.

Results

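Cytosolic ribosomal protein genes encode the protein subunits of the ribosome that makes nearly all proteins of a cell. They were followed here in nuclei of the mouse hippocampus. The genes were chosen by symbol: those of the form Rpl or Rps with a number, with or without a closing a or x, together with Rpsa, Rplp0, Rplp1 and Rplp2, and without pseudogenes. This gave 76 genes of 20211 symbols listed in all 4 libraries, 46 of the large subunit and 30 of the small subunit. In all 76 genes UMIs (unique molecular identifiers, each counting 1 captured RNA molecule) were found in dentate granule, CA1, CA2/CA3 and inhibitory nuclei of every library. The label holds for what the symbols name, except that a few genes of the cytosolic ribosome (such as Rps3a1, Fau and Rack1) have symbols outside the rule and were described apart.

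Each genotype was represented by 1 library. The first was labelled wild type, the next a total (global) knockout of MAGL, then an astrocyte-specific and a neuron-specific knockout. MAGL, monoacylglycerol lipase, is encoded by Mgll and degrades an endocannabinoid lipid. The labels give no age, no sex, no number of animals, no deleted part of Mgll and no Cre driver. Since genotype and library cannot be told apart with 1 library each, differences between genotypes carry no test, and their 95% intervals cover counting error only.

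The libraries held between 8945 and 31243 barcodes, the most in the total knockout, and 8835 to 30924 nuclei were kept. Nuclei were placed in cell classes by marker genes, which classed 53.4% to 65.0% of them, and a class name means resemblance on 8 markers. Median UMIs per kept nucleus ranged from 5492 in the total knockout to 8938 in wild type. Pairs of libraries shared between 108 and 466 barcodes. Nuclei called male and female were both present in 3 libraries, while the total knockout held 8 female calls among 30924 nuclei. A nucleus was called male with UMIs of Y-linked genes and none of the X-linked Xist, and female with the reverse. The others stayed uncalled. In dentate granule nuclei Mgll stood at 119 CPM (UMIs scaled to the same total in every class and library) for wild type, 99.6 for the total, 137 for the astrocyte and 130.2 for the neuron knockout. As the deleted part is unknown, these levels do not check the labels here. The knockout libraries are abbreviated tKO (total), aKO (astrocyte) and nKO (neuron).

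As background, ribosomal proteins are made in matched amounts and assembled on ribosomal RNA in the nucleolus. Most of their mRNAs start with a run of pyrimidines, the 5′ terminal oligopyrimidine tract, through which mTORC1 and LARP1 set their translation when nutrients or activity change. Many of the genes carry small nucleolar RNAs in their introns, and they have left many processed pseudogenes. In neurons they are known for transcripts that also reach dendrites and axons. Nuclear RNA holds unspliced and freshly spliced transcripts, beside cytoplasmic RNA that stays with the nucleus, and the counts do not part these.

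The start sites are shown because the pyrimidine run is the sequence feature that the family is known for and that the choice by symbol did not use. RefSeq promoters (GRCm38.p6) were found for 56 of the 76 genes. A run of at least 7 pyrimidines within 15 bases before to 15 bases after the start was present in 31 of the 56 (55.4%), against 21.3% of all genes with a promoter in the same table. The first 6 windows below hold such a run, and the next 4, among them 3 from the X chromosome, are shown for contrast. The fourth X-linked gene of the family, Rpl39, holds a run of 8. Each runs 5′ to 3′ over 30 bases on the strand of the gene, with the longest run of C and T in capitals.
Rps6: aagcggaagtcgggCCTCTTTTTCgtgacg
Rpl18: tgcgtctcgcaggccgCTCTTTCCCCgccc
Rpl28: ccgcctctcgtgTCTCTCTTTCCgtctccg
Rplp2: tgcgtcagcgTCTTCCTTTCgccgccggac
Rpl15: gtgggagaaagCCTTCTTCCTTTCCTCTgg
Rpl4: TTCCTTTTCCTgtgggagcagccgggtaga
Rpl41: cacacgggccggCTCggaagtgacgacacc
Rpl10: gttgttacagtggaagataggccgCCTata
Rpl36a: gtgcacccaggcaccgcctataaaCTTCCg
Rps4x: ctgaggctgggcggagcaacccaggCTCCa
The windows lie at chr4:86857353-86857382 (Rps6, minus strand), chr7:45718056-45718085 (Rpl18, plus), chr7:4792950-4792979 (Rpl28, plus), chr7:141447636-141447665 (Rplp2, plus), chr14:18270972-18271001 (Rpl15, minus), chr9:64173372-64173401 (Rpl4, plus), chr10:128549154-128549183 (Rpl41, minus), chrX:74270801-74270830 (Rpl10, plus), chrX:134585639-134585668 (Rpl36a, plus) and chrX:102189377-102189406 (Rps4x, minus). In Rps6 the run starts 1 base before the annotated start. In Rpl4 the run starts 15 bases before the annotated start and ends before it. A run in the window thus need not lie at the 5′ end of the mRNA. The letters CCGGAAG, searched on both strands of the window from 250 bases before to 50 after the start, were present in 23 of the 56 genes (41.1%) and in 9.93% of all genes. In Rpl41 the run was 3 bases long.

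All 76 genes were matched to GENCODE release M21 (GRCm38). Their median span on the genome was 3266 bases, against 26079 for 15373 other protein-coding genes, and the spans ran from 828 (Rpl36) to 31449 (Rps14). In total 29 genes held at least 1 annotated small nucleolar RNA within their bounds, and 59 had named pseudogenes, 291 in all. Rps4x, Rpl10, Rpl36a and Rpl39 lie on the X chromosome. A further 5 genes overlap another gene on the same strand and 20 overlap one on the other strand. No source used here says how reads shared with pseudogenes were counted or whether strand was used, so the levels of single genes are uncertain to that extent.

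The summed UMIs of the 76 genes differed between cell classes and between libraries. In dentate granule nuclei, the principal neurons of the dentate gyrus, they made up 3598 CPM in wild type (3570 to 3627), 2882 in the tKO library (2861 to 2902), 2421 in the aKO (2397 to 2446) and 2338 in the nKO library (2312 to 2364). In CA1 pyramidal nuclei the levels were 2171, 1936, 1762 and 1585 CPM in the same order. In CA2/CA3 pyramidal nuclei they were 1890, 1738, 1576 and 1440 CPM. Over all nuclei of a class, wild type was highest and the nKO library lowest in each of these 3 classes, and dentate granule nuclei were above CA1 and CA2/CA3 nuclei within every library.
Inhibitory nuclei stood at 2795, 2381, 2010 and 1901 CPM, and cortical or subicular excitatory nuclei at 2661, 2306, 2015 and 1924, in the same order of libraries. In nuclei of 4000 to 8000 UMIs wild type was still highest, but nKO was not lowest: dentate granule nuclei stood at 2441 CPM in aKO and 2541 in nKO, CA1 nuclei at 2149 in tKO, 2091 in aKO and 2160 in nKO, and inhibitory nuclei at 2292 in aKO and 2295 in nKO. At 8000 to 16000 UMIs nKO was again below aKO in dentate granule (2157 and 2296 CPM) and CA1 nuclei (1526 and 1625), but not in inhibitory nuclei (1836 and 1790).
Of the glial classes microglia kept this order, at 4209, 3864, 3537 and 2938 CPM, from 8 to 93 nuclei per library, with overlapping intervals between neighbours. Astrocytes, oligodendrocyte precursors and oligodendrocytes did not. In astrocytes, from 28 to 107 nuclei per library, the levels were 4480, 4286, 3017 and 4674 CPM, beside mitochondrial UMIs of 1146, 1555, 1605 and 3442 CPM, whose part was not tested. In oligodendrocyte precursors they were 3315, 2518, 2321 and 3785 CPM, the last from 17 nuclei. In astrocytes and precursors the nKO value was highest, but its log2 ratio to wild type did not exceed counting error, at 0.06 (-0.06 to 0.18) in astrocytes and 0.19 (-0.03 to 0.40) in precursors. Medium spiny nuclei, of which aKO and nKO held 3 each, are not ordered here. Oligodendrocytes stood at 3123, 2680, 2853 and 2773 CPM. Vascular nuclei reached 22225 to 34586 CPM, but from 6 to 21 nuclei per library whose mitochondrial UMIs made up 9358 to 25660 CPM.

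**Figure D1:**
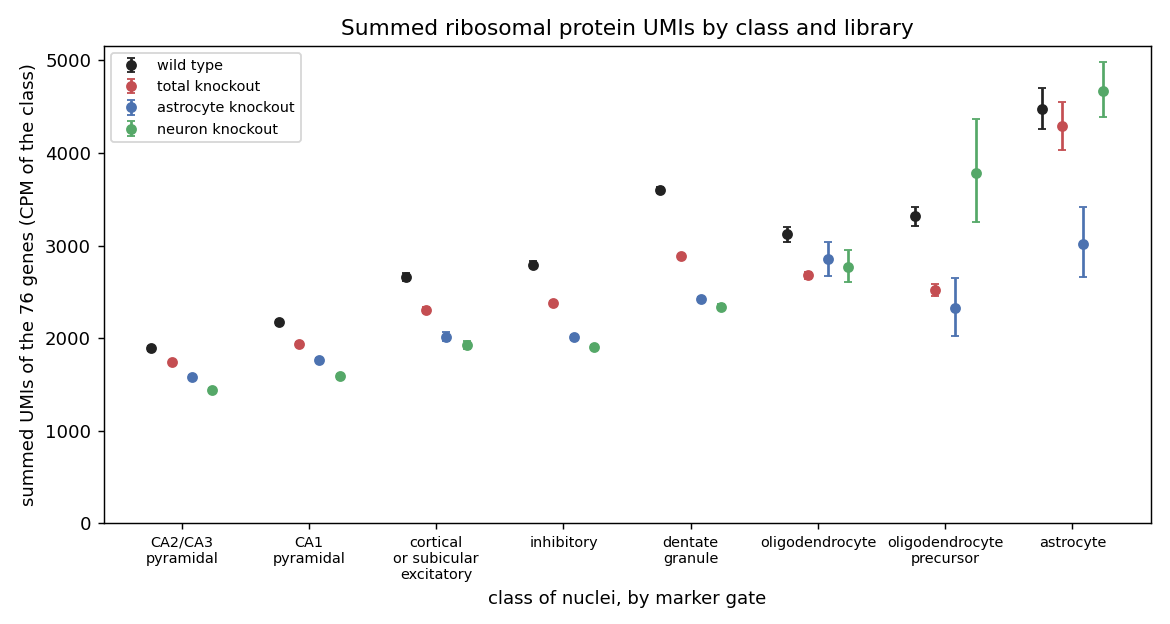
Summed UMIs of the 76 ribosomal protein genes, in CPM of the class, for 8 classes of nuclei (horizontal axis) and 4 libraries (colours); bars are exact 95% Poisson intervals of the counts. Over all nuclei the 5 neuronal classes at the left keep the order wild type, total, astrocyte and neuron knockout, but the order of the astrocyte and neuron knockouts depends on depth: in dentate granule nuclei they stand at 2441 and 2541 CPM at 4000 to 8000 UMIs and at 2296 and 2157 at 8000 to 16000.

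The first comparison asks how the knockout libraries differed from wild type in dentate granule nuclei. Relative to wild type, the family's summed log2 difference was -0.32 (-0.34 to -0.30) in the tKO, -0.57 (-0.59 to -0.55) in the aKO and -0.62 (-0.64 to -0.60) in the nKO library. In single genes with a pseudocount of 1 count, 73, 75 and 75 of the 76 lay below wild type in that order, where 57.2%, 58.6% and 55.3% of all 13596 genes with at least 100 UMIs did. Past 1.5-fold below wild type lay 2, 44 and 48 of the 76, against a background of 5.65%, 4.93% and 5.0% of all genes, and 0 lay past 1.5-fold above it, where 4.64%, 3.40% and 2.38% of all genes did. All 76 passed the minimum of 100 UMIs. The median log2 ratio was -0.34, -0.61 and -0.66, against -0.04, -0.05 and -0.03 over all genes. Wild type held the highest level of the 4 libraries in 73 of the 76 genes, against 36.5% of all genes. The 3 knockout ratios share the wild-type library, so they are not independent of each other. Between the knockout libraries themselves, the tKO library lay above the aKO by 0.25 and above the nKO by 0.30 on the log2 scale, and the nKO library lay 0.05 below the aKO (-0.05, -0.07 to -0.03). This last direction turned at 4000 to 8000 UMIs, where nKO stood at 2541 CPM (2498 to 2585) and aKO at 2441 (2405 to 2477), and held in the deeper nuclei given above.

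**Figure D2:**
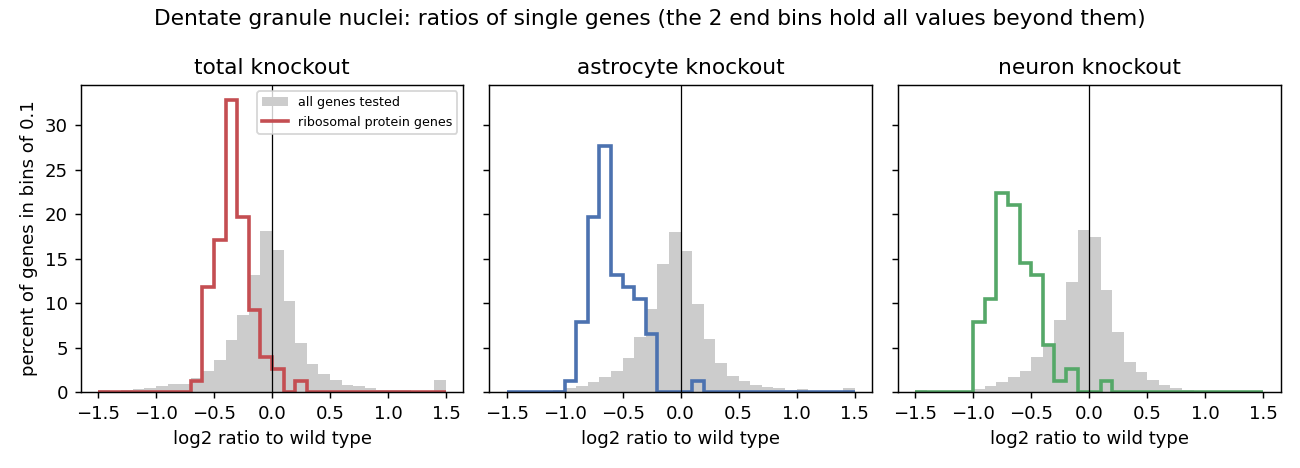
Distribution of log2 ratios to wild type over single genes in dentate granule nuclei, in percent of genes per bin of 0.1, for all 13596 genes tested (grey) and the 76 ribosomal protein genes (coloured outline), with 1 panel for each knockout library. The outline is centred at -0.34, -0.61 and -0.66 and the grey distribution near 0.

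Among the stalk proteins, which recruit the translation factors to the large subunit, Rplp1 was found at 107 CPM in wild-type dentate granule nuclei, 92.3 in the tKO, 58.6 in the aKO and 62.4 in the nKO library. Its log2 ratio was -0.22 (-0.31 to -0.13), -0.87 (-0.99 to -0.76) and -0.78 (-0.90 to -0.67). The tKO library lay closer to wild type than the aKO and nKO libraries did. Rplp2 followed the same order at 42.8, 35.0, 24.9 and 26.3 CPM. Rplp0, the base of the stalk, instead was at similar levels in all 3 knockout libraries (13.8, 13.2 and 13.8 CPM) below wild type (20.7 CPM), and with -0.59 had the second lowest ratio of the tKO library after Rpl7 (-0.67).

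Small-subunit genes moved with the large-subunit ones, with medians of -0.33, -0.61 and -0.67 over 30 genes against -0.34, -0.62 and -0.65 over 46. Rps6, the target of S6 kinase, stood at 41.2 CPM in wild type and at 27.6, 27.9 and 22.9 CPM in the tKO, aKO and nKO libraries. Rps27a, made as a fusion with ubiquitin, stood at 60.6, 51.2, 37.1 and 36.3 CPM from wild type to the nKO library. Rpsa, which is also the precursor of a laminin receptor, stood at 49.8, 39.2, 30.0 and 34.0 CPM. In these 3 genes every knockout library was below wild type by more than counting error.

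The lowest ratios of the aKO library were those of Rpl39 (-0.98, -1.29 to -0.68), Rplp1 and Rpl36a (-0.87). Rpl39, a small protein that lines the exit tunnel of the nascent chain, stood at 17.6 CPM in wild type, 13.8 in the tKO, 8.89 in the aKO and 9.14 in the nKO library. In the nKO library the lowest were Rpl39 (-0.94), Rpl28 (-0.94) and Rpl18 (-0.92). Rpl18 stood at 45.8, 31.5, 25.1 and 24.2 CPM and Rpl28 at 45.0, 30.9, 25.6 and 23.5 CPM.

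Of the 4 X-linked genes, Rps4x (40.2, 28.1, 25.5 and 21.4 CPM), Rpl36a (15.7, 12.8, 8.56 and 8.47 CPM) and Rpl39 lay below wild type in all 3 knockout libraries. Rpl10, which joins the large subunit late in its maturation, stood at 35.3, 27.7, 30.3 and 32.7 CPM, with the smallest difference in the nKO library (-0.11, -0.29 to 0.07). Rpl29 was the exception of the family. It stood at 26.8 CPM in wild type and at 31.1, 30.4 and 29.6 CPM in the knockout libraries, with log2 ratios of 0.21 (0.04 to 0.38), 0.18 (-0.01 to 0.37) and 0.14 (-0.06 to 0.34), of which only the first exceeded counting error. Rpl41, which encodes one of the shortest proteins known, was level with wild type in the tKO library (59.6 and 60.0 CPM) and lower in the aKO (48.8 CPM) and nKO library (41.0 CPM). Rpl22, which has a paralog in Rpl22l1, stood at 18.9, 18.1, 14.5 and 15.0 CPM. Also near wild type in the tKO library was Rps29 (0.05), and the next highest after Rpl29 were Rpl10a (-0.23) behind Rpl10 in the aKO and Rpl35 (-0.18) behind Rpl10 in the nKO library.

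The genes were also split by the pyrimidine run and by small nucleolar RNAs. The run, of at least 7, could lie anywhere in the window around the start and need not begin at the start itself. In the nKO library the median log2 ratio in dentate granule nuclei was -0.67 over 31 genes with a run and -0.63 over 25 without. It was -0.62 over the 29 genes with a small nucleolar RNA inside and -0.68 over the 47 without. In the aKO library these medians were -0.61, -0.62, -0.63 and -0.61. The run did not go with one direction across classes: in CA1 nuclei of aKO the median was -0.24 with a run and -0.35 without, and in inhibitory nuclei of nKO -0.60 with and -0.47 without.

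In CA1 nuclei the summed ratios over all nuclei were closer to 0. The summed log2 ratio was -0.16 in the tKO (-0.19 to -0.14), -0.30 in the aKO (-0.33 to -0.28) and -0.45 in the nKO library (-0.48 to -0.43). Below wild type lay 62, 73 and 73 of the 76 genes (background 55.5%, 57.9% and 52.8% of 12887 genes). Past 1.5-fold below it lay 0, 2 and 15 (background 4.92%, 3.67% and 4.39%), and 0 lay past 1.5-fold above it (background 2.34%, 1.51% and 1.78%). The median log2 ratio was -0.17, -0.33 and -0.49, against -0.03, -0.04 and -0.01 over all genes. Wild type was the highest of the 4 libraries in 62 genes, against 32.0% of all genes. The values in CA1 moved with the choice of nuclei. At 4000 to 8000 UMIs the summed ratios were -0.49, -0.53 and -0.49, that of tKO no longer closer to 0 than in dentate granule nuclei (-0.47), and the counts past 1.5-fold below wild type rose to 34, 37 and 33 of 74 (background 14.9%, 13.4% and 12.2%), with 2 above it in nKO and 124 wild-type nuclei in that range. With male nuclei alone the ratios were -0.04, -0.17 and -0.28. Whether the differences in CA1 and in dentate granule nuclei are unequal was not tested.

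Rplp1 was again among the lowest in the nKO CA1 nuclei (-0.80, -0.98 to -0.63), as was Rpl24 (-0.74). Its levels were 58.1 CPM in wild type, 58.2 in the tKO, 39.9 in the aKO and 33.3 in the nKO library. In the aKO library Rpl36a (-0.65) and Rplp2 (-0.60) were among the lowest, and in the tKO library Rpl5 (-0.56), Rps7 (-0.52) and Rpl27 (-0.43). Rpl5 binds the 5S ribosomal RNA together with Rpl11.
Rpl29 lay above wild type in CA1 too, at 16.7 CPM in wild type and 18.05, 22.2 and 20.6 CPM in the tKO, aKO and nKO libraries. Its ratio exceeded counting error in the aKO (0.41, 0.16 to 0.67) and nKO library (0.31, 0.04 to 0.58). Rpl35 had the highest ratio in the tKO (0.31) and nKO library (0.44, -0.06 to 0.96), from 59 UMIs in wild type, so a difference was not detectable at this depth. In the tKO library Rps21 (0.15) and Rpl41 (0.14) came next, and Rpl10 was at 0.14 and 0.12 in the aKO and nKO libraries.

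Inhibitory nuclei had summed ratios between those of dentate granule and CA1 nuclei. Their summed log2 ratio was -0.23, -0.48 and -0.56 in the tKO, aKO and nKO libraries. With male nuclei alone it was -0.06, -0.27 and -0.38, and at 4000 to 8000 UMIs -0.48, -0.61 and -0.61. In single genes 69, 74 and 74 lay below wild type (background 59.6%, 60.2% and 55.6% of 13453 genes), and 1, 23 and 42 lay past 1.5-fold below it (background 6.42%, 5.41% and 5.98%), with 0 past 1.5-fold above (background 2.97%, 2.31% and 2.27%). At 4000 to 8000 UMIs 27, 46 and 40 lay past 1.5-fold below wild type (background 1165, 1120 and 988 of 10639 genes), and in nuclei without mitochondrial UMIs 3, 22 and 24 of 75 (background 7.45%, 9.37% and 6.8%). Among the lowest were Rplp0 (-0.61) and Rpl27 (-0.56) in the tKO library, Rplp2 (-0.78) and Rpl23 (-0.74) in the aKO, and Rps23 (-0.91) in the nKO library. Rpl29 again was among the highest, at 20.4 CPM in wild type and 24.7, 20.6 and 24.2 CPM in the knockout libraries. Wild type was the highest of the 4 libraries in 67 genes (background 37.0%). Rplp1 was at 68.3 CPM in wild type and 68.4 in the tKO library, and at 44.3 and 41.9 CPM in the aKO and nKO libraries. The other highest ratios were those of Rps29 (0.11), Rpl41 (0.09), Rpl12 (0.04), Rpl10a (-0.12), Rpl10 (0.10) and Rpl30 (-0.07).

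In the wild-type library the family stood higher in nuclei called female than in nuclei called male. In wild-type dentate granule nuclei the 76 genes summed to 3288 CPM in nuclei called male (841 nuclei) and 3884 CPM in nuclei called female (837 nuclei). In the other mixed libraries the male and female levels were 2361 and 2479 CPM in the aKO and 2342 and 2341 CPM in the nKO library. Female nuclei were thus higher in wild type by more than in aKO, and level in nKO. In wild-type CA1 nuclei the levels were 1969 CPM in male and 2309.8 in female nuclei. Male and female CA1 nuclei stood at 1754 and 1748 in aKO, and male nuclei were higher in nKO (1625 and 1486). In inhibitory nuclei the male and female levels were 2436 and 3003 CPM in wild type. They were 2022 and 1980 in aKO and 1872 and 1906 in nKO inhibitory nuclei. The animals behind these nuclei are not given, so sex and animal cannot be told apart. A call needs a UMI of a sex-linked gene, so it may also select on depth. Male dentate granule nuclei had median UMIs of 7916, 5077, 5702.5 and 7247.5 in wild type, tKO, aKO and nKO. Over all dentate granule nuclei the medians were 8061, 4787, 5990.5 and 7212.5. With male nuclei alone the summed ratio was -0.22, -0.48 and -0.49 in dentate granule nuclei and -0.04, -0.17 and -0.28 in CA1 nuclei for the tKO, aKO and nKO libraries. In male dentate granule nuclei 1, 24 and 28 genes lay past 1.5-fold below wild type, against 4.97%, 5.81% and 5.14% of all genes in those nuclei, and 1 lay above it in nKO. In male inhibitory nuclei these counts were 0, 6 and 16, against 6.11%, 6.09% and 6.12%.

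Mitochondrial UMIs, which come from outside the nucleus, also moved with the libraries. They stood at 493 CPM in wild-type dentate granule nuclei, 469 in the tKO, 257 in the aKO and 106 in the nKO library, and at 283, 312, 207 and 55.3 CPM in CA1 nuclei. Within wild-type dentate granule nuclei the 76 genes summed to 2962 CPM where no mitochondrial UMI was seen (544 nuclei) and to 5696 CPM where mitochondrial UMIs exceeded 1000 CPM (243 nuclei). Among nuclei with no mitochondrial UMI, a choice made after seeing the data, the levels were 2962, 2547, 2215 and 2132 CPM in the 4 libraries. Wild type was still highest, and the log2 ratios were -0.22, -0.42 and -0.47. Past 1.5-fold below wild type lay 2, 18 and 21 of the 76 genes in the tKO, aKO and nKO libraries, and 1 lay above it in aKO. Of all genes in those nuclei 5.56%, 4.21% and 3.07% lay past 1.5-fold below, so the tKO count is under its background. The part of cytoplasmic RNA in the remaining difference was not tested.

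Marker genes of other cell types in the dentate granule class were summed to see whether another class moved with the result. The 8 dentate granule markers themselves summed to between 5213 and 5756 CPM. The 8 astrocyte markers summed to between 799 and 948 CPM and the 8 oligodendrocyte markers to between 358 and 394.7 CPM in the 4 libraries. The 8 microglial markers lay between 43.3 and 55.7 CPM and the 8 vascular ones between 2.92 and 6.10 CPM. Of these lists 1 astrocyte marker (Fgfr3, in the nKO library) was at 0. The microglial marker Tmem119 was at 0 in wild type, aKO and nKO. Of the vascular markers, Cldn5, Ly6c1 and Adgrl4 were at 0 in wild type and Adgrl4 in nKO. Several neuronal lists and the choroid plexus list were highest in the tKO library. The summed inhibitory markers stood at 96.1, 242.7, 146 and 74.6 CPM in wild type, tKO, aKO and nKO, and the CA1 markers at 38.3, 105.5, 63.2 and 39.6. The cortical or subicular markers stood at 339, 485, 397 and 347 CPM and the choroid plexus markers at 22.4, 45.3, 28.1 and 14.5. The markers of oligodendrocyte precursors were highest in aKO, at 907 CPM against 741 to 766 in the others. The part of other cell types in the result was not tested.

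Depth moved with the family too. In wild-type dentate granule nuclei the 76 genes fell from 10081 CPM in nuclei under 2000 UMIs (39 nuclei) to 3880 at 4000 to 8000 UMIs (805 nuclei) and 3281 at 8000 to 16000 UMIs (864 nuclei), and stood higher again, at 3652 (3571 to 3735), over 16000 UMIs (108 nuclei). The tKO library, the shallowest, showed 4889, 2802, 2615 and 2302 CPM in the same bins, the aKO 5576, 2441, 2296 and 2204, and the nKO 5152, 2541, 2157 and 1999. Wild type was highest in every bin of the 3 classes examined. At 4000 to 8000 UMIs the log2 ratio of the tKO library was larger than over all nuclei, at -0.47 in dentate granule and -0.49 in CA1 nuclei. In that range 18, 59 and 49 genes of the 3 knockout libraries lay past 1.5-fold below wild type in dentate granule nuclei, against 7.15%, 6.27% and 5.38% of all genes.

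**Figure D3:**
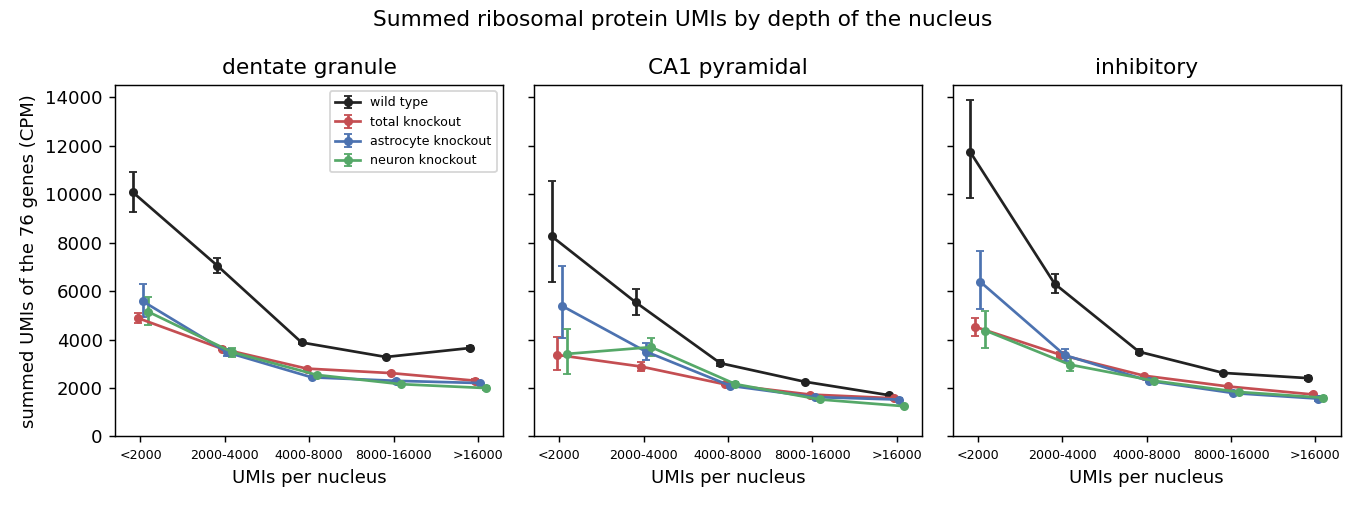
Summed UMIs of the 76 genes (CPM) against the UMIs per nucleus in 5 bins, for dentate granule, CA1 and inhibitory nuclei and 4 libraries; bars are exact 95% Poisson intervals. Wild type is the highest library in every bin, and levels are lower in deeper nuclei in most series, except that wild-type dentate granule nuclei stand at 3652 CPM over 16000 UMIs after 3281 in the bin before and neuron knockout CA1 nuclei at 3688 after 3408.

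Other short genes lay below wild type as well. In dentate granule nuclei the 178 other coding genes spanning up to 2000 bases had a median log2 ratio of -0.22, -0.29 and -0.38 in the tKO, aKO and nKO libraries. The 739 genes of 2000 to 5000 bases had -0.22, -0.16 and -0.23, and genes over 100000 bases 0.04, 0.02 and 0.02. The 52 ribosomal protein genes of 2000 to 5000 bases had -0.33, -0.63 and -0.67, below the other genes of that span in each library. This did not hold for tKO in other classes, where the family and the other genes of that span had medians of -0.18 and -0.19 in CA1, -0.14 and -0.22 in CA2/CA3, -0.28 and -0.32 in inhibitory and -0.24 and -0.24 in cortical or subicular nuclei. The 12 of 5000 to 10000 bases had -0.39, -0.62 and -0.70, where 1339 other genes had -0.11, -0.08 and -0.10. The 8 family genes of up to 2000 bases had -0.24, -0.54 and -0.61. In nKO these and the other genes of that span had -0.41 and -0.37 in CA2/CA3 and -0.42 and -0.39 in cortical or subicular nuclei. They had -0.50 and -0.43 in inhibitory and -0.57 and -0.36 in CA1 nuclei of nKO. In tKO these 8 lay above the others in CA1 (-0.07 and -0.26) and inhibitory nuclei (-0.15 and -0.40).

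**Figure D4:**
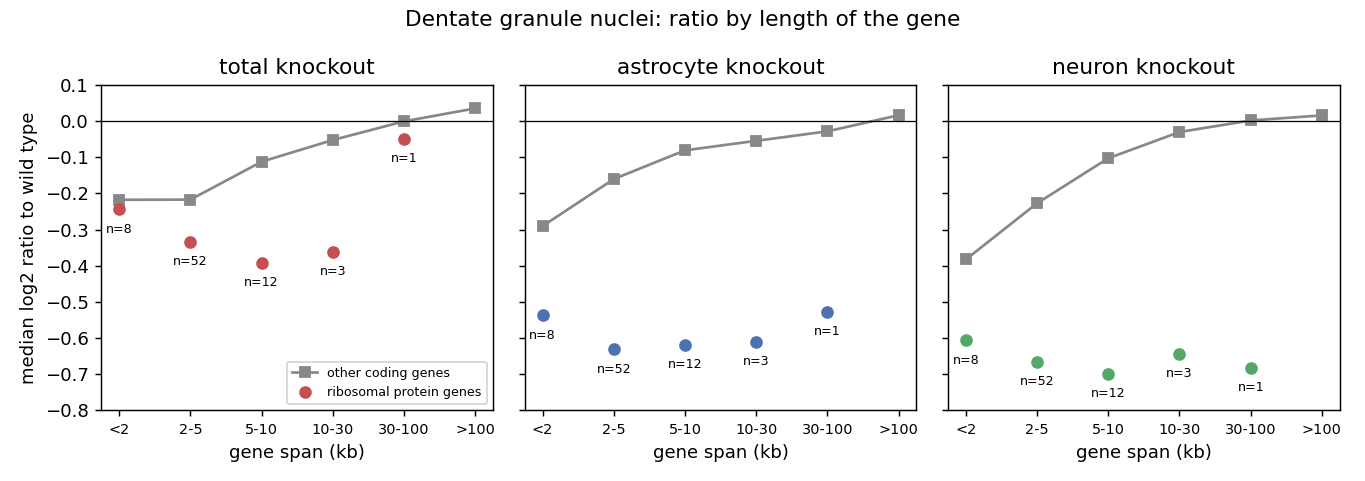
Median log2 ratio to wild type in dentate granule nuclei by the span of the gene in kilobases (6 bins), for other coding genes (grey squares) and the ribosomal protein genes (coloured circles, with their number n), in 1 panel per knockout library. Other genes rise towards 0 with span, while the medians of the ribosomal protein genes lie between -0.53 and -0.70 in the astrocyte and neuron knockout over the spans they cover.

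The neighbours of the family in the translation machinery were taken from lists, whose counts are read against the 57.2%, 58.6% and 55.3% of all 13596 genes that lay below wild type in dentate granule nuclei of the tKO, aKO and nKO libraries. Ribosomal genes outside the symbol rule lay below wild type in 8 of 8 tested in dentate granule nuclei, with medians of -0.38, -0.64 and -0.59. Translation factors, which start and extend the protein chain, lay below in 22 of 23 in each library, with medians of -0.26, -0.32 and -0.36. Ribosome biogenesis factors, which assemble the subunits, had medians of -0.15, -0.19 and -0.10, and 20, 18 and 15 of 27 lay below wild type, the last count being at the background. Regulators of ribosomal genes lay below in 3, 3 and 2 of 10, with medians of 0.06, 0.05 and 0.13. The 78 genes of the mitochondrial ribosome, a separate ribosome inside mitochondria, had medians of -0.28, -0.21 and -0.24. Nuclear genes of oxidative phosphorylation had -0.31, -0.51 and -0.65, with 27, 28 and 28 of 28 below, close to the values of the family. Host genes of small nucleolar RNAs outside the family had -0.27, -0.07 and -0.26 over 9 genes.

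The second comparison asks how the family differed between neuron classes. Class sums of UMIs in each library were tested with edgeR's quasi-likelihood test with library as a block, so that the 4 libraries, which also differ in genotype, serve as 4 samples of each class. In CA1 against dentate granule nuclei, 75 of 76 genes fell at an adjusted p under 0.05, beside 29.1% of all 16474 genes that were lower. The median log2 fold change was -0.53, against -0.01 over all genes. By summed UMIs, CA1 lay below dentate granule nuclei in 4 of 4 libraries by -0.58 ± 0.11 (mean and SD of the log2 difference, n = 4). Rps27 did not pass (-0.13, adjusted p = 0.17 by edgeR), though it was lower in 4 of 4 libraries. The largest decreases were those of Rpl7 (-0.82, adjusted p = 3.8e-07), Rplp0 (-0.82), Rpl36a (-0.81), Rpl3 (-0.74), a core protein near the catalytic centre, and Rps9 (-0.73), all by edgeR. In the wild-type library Rpl7 stood at 18.2 CPM in CA1 and 40.1 in dentate granule nuclei, and in the nKO library at 12.5 and 23.8 CPM. The smallest decreases that passed were those of Rps14 (-0.24), Rpl10 (-0.28), Rpl36 (-0.29), Rpl35 (-0.32, adjusted p = 0.030 by edgeR) and Rpl41 (-0.33). Without the wild-type library Rpl35 stood at -0.17 and no longer passed, nor did it pass with DESeq2.

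CA2/CA3 nuclei had the lowest summed levels of the 5 neuron classes plotted by library. All 76 genes fell against dentate granule nuclei (background 31.1% lower), with a median of -0.73, and the summed level was lower in 4 of 4 libraries by -0.74 ± 0.13 (SD, n = 4). Rpl7 fell most, to -1.10 (adjusted p = 2.1e-08 by edgeR), at 14.5 and 40.1 CPM in CA2/CA3 and dentate granule nuclei of wild type and 10.4 and 23.8 CPM in the nKO library. Rpl18 (-1.01), Rpl8 (-0.997) and Rps4x (-0.94) followed. Rpl6 fell least (-0.36), before Rpl35 (-0.43), Rpl41 (-0.45), Rps14 (-0.47) and Rpl22 (-0.48). Rpl6 stood at 73.0 and 109 CPM in wild type. Rpsa, Rplp1, Rplp2, Rps27a and Rps6 fell as well, by 0.85, 0.93, 0.63, 0.92 and 0.84 on the log2 scale.

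**Figure D5:**
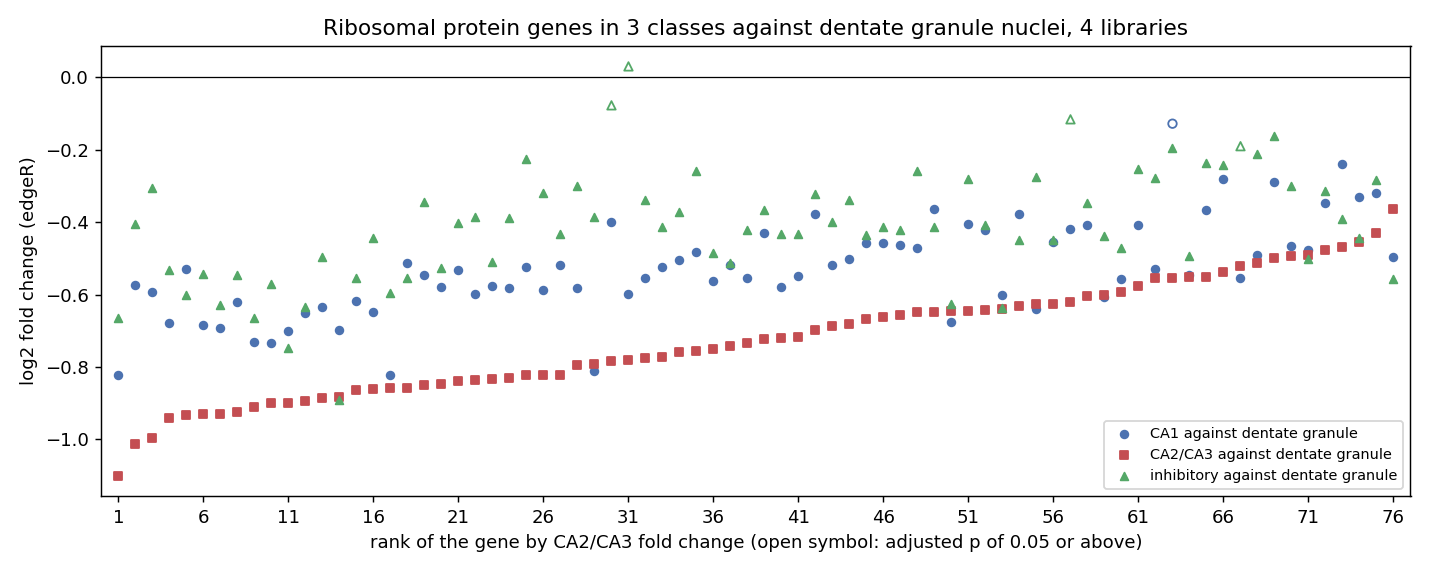
Log2 fold changes of the 76 genes (horizontal axis, by their rank in CA2/CA3) in CA1, CA2/CA3 and inhibitory nuclei against dentate granule nuclei, fitted by edgeR over 4 libraries; filled symbols have an adjusted p under 0.05. Nearly all points lie below 0, with medians of -0.53, -0.73 and -0.41, and the open symbols include Rps27 in CA1 and Rpl30, Rpl11 and Rpl39 in inhibitory nuclei.

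In inhibitory against dentate granule nuclei 72 of 76 genes fell and 0 rose (background 35.2% lower and 36.2% higher) with a median of -0.41, and the summed level was lower in 4 of 4 libraries by -0.30 ± 0.04 (SD, n = 4). Scaled by total UMIs, 62 genes were lower and 1 higher (background 29.1% lower), and without mitochondrial UMIs 57 were lower and 0 higher (background 32.0% lower). Rpl15 fell most (-0.89, adjusted p = 1.6e-09 by edgeR), at 48.4 CPM in inhibitory and 79.9 in dentate granule nuclei of wild type, 39.5 and 68.4 in the tKO, 38.4 and 62.0 in the aKO and 37.1 and 69.2 in the nKO library. The inhibitory level was lower in every library. Rpl4 (-0.75), Rpl7 (-0.67), Rps9 (-0.67) and Rps18 (-0.64) came next. The smallest decreases that passed were those of Rpl36 (-0.16), Rps27 (-0.19), Rps20 (-0.21), Rpl23 (-0.23) and Rps13 (-0.24).
Among the genes that did not pass by edgeR were Rpl11 (0.03, adjusted p = 0.66), Rpl30 (-0.08, 0.22) and Rpl39 (-0.19, 0.15). Rpl11, which with Rpl5 binds MDM2 when ribosome assembly stalls, was the one gene with a higher CPM in inhibitory nuclei in all 4 libraries, at 56.0 against 55.2 CPM in wild type, 44.9 against 43.0 in the tKO, 43.6 against 38.9 in the aKO and 45.1 against 35.2 in the nKO library. Nuclear genes of oxidative phosphorylation moved the other way in this comparison, with 19 of 28 higher and 0 lower, and of 12 mitochondrially encoded genes 0 passed in either direction.

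In inhibitory against CA1 nuclei 23 genes were higher (background 33.5%) and 2 lower (background 31.6%). The count of higher genes is near the background and that of lower genes under it. The median was 0.12, against 0.02 over all genes. The leading gene was Rpl11 (0.63, adjusted p = 3.9e-07 by edgeR), higher in 4 of 4 libraries, at 56.0 against 33.9 CPM in wild type and 45.1 against 22.6 CPM in the nKO library. Rpl36a (0.43), Rpl17 (0.37), Rpl39 (0.36) and Rpl30 (0.32) followed. Rpsa, Rplp0 and Rps6 rose as well, by 0.20, 0.23 and 0.21, and of the genes that passed Rps10 (0.14), Rps21 (0.16) and Rpl3 (0.16) rose least. Rpl15 (-0.19) and Rps14 (-0.15) were lower. The signs of the smallest differences turned under alternatives: Rps10 (-0.011) and Rpl3 (-0.0052) without mitochondrial UMIs, Rpl3 (-0.015) at 4000 to 8000 UMIs and Rps14 (0.019) scaled by total UMIs. This comparison depends on how the classes are scaled. Scaled by total UMIs, a choice made after seeing the data, 64 genes were higher and 0 lower, and the median of all genes itself moved from 0.02 to 0.19. Over all genes the calls moved from 5515 higher and 5198 lower to 7649 higher and 3772 lower. The summed CPM was higher in inhibitory nuclei in 4 of 4 libraries, by 0.28 ± 0.07 (SD, n = 4).

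Depth bears on these comparisons, since CA1, CA2/CA3 and inhibitory nuclei were deeper than dentate granule nuclei in every library (medians of 11480.5, 15640.5, 9715 and 8061 UMIs in wild type) and the share of the family was lower in nuclei of 8000 to 16000 than of 4000 to 8000 UMIs in each library and class examined. With nuclei of 4000 to 8000 UMIs alone, 34, 37 and 35 of the 76 genes were lower than in dentate granule nuclei in CA1, CA2/CA3 and inhibitory nuclei, 0 were higher, and the medians were -0.25, -0.36 and -0.21, closer to 0 than over all nuclei. Of all genes in that range 20.7%, 17.2% and 27.8% were lower. Rpl10 changed sign in that range in CA1 (0.031) and inhibitory nuclei (0.0044). That range held 69 wild-type CA2/CA3 nuclei. Whether the lost calls come from fewer nuclei or from a smaller difference at matched depth was not tested. At 8000 to 16000 UMIs the family summed to 3281 CPM in dentate granule, 2260 in CA1 and 2622 in inhibitory nuclei of wild type. In the nKO library it summed to 2157, 1526 and 1836 CPM. At 2000 to 4000 UMIs CA1 was below dentate granule in wild type (5531 and 7054 CPM) and tKO (2886 and 3615). It was not below in aKO (3501 and 3467) and nKO (3688 and 3475). Under 2000 UMIs inhibitory nuclei were above dentate granule nuclei in wild type (11742 and 10081) and aKO (6381 and 5576). They were below in tKO (4524 and 4889) and nKO (4372 and 5152).

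The lists around the family are read against the 29.1%, 31.1% and 35.2% of all genes that were lower in CA1, CA2/CA3 and inhibitory nuclei, and the 28.7%, 30.3% and 36.2% that were higher. Translation factors were lower in 15 of 23 in CA1, 19 of 23 in CA2/CA3 and 13 of 23 in inhibitory nuclei, with 0, 0 and 2 higher. Ribosomal genes outside the rule were lower in 6, 9 and 5 of 9. Biogenesis factors were lower in 10, 12 and 9 of 27 and higher in 6, 3 and 5. Nuclear genes of oxidative phosphorylation were lower in 12, 18 and 0 of 28 and higher in 0, 1 and 19, so they moved with the family in CA1 and CA2/CA3 nuclei only. Host genes of small nucleolar RNAs outside the family were lower in 6, 6 and 6 of 9 and higher in 1, 2 and 2, with medians of -0.42, -0.42 and -0.37. Genes of the mitochondrial ribosome were lower in 12, 22 and 15 of 78 and higher in 10, 7 and 25, under both shares in each class. The 12 mitochondrially encoded genes tested, whose transcripts are made outside the nucleus, moved with the family in CA1 (11 lower, median -0.59) and CA2/CA3 nuclei (10 lower, median -0.61), and in inhibitory against CA1 nuclei 10 were higher (median 0.62). With nuclei that held no mitochondrial UMI, a choice made after seeing the data, 70 and 75 of the 76 ribosomal protein genes were lower in CA1 and CA2/CA3 than in dentate granule nuclei (background 25.2% and 26.5%).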

How the data were processed

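Counts of UMIs by gene and nucleus were taken as deposited by the authors (10x Genomics multiome kit, per the labels' protocols; Cell Ranger ARC 2.0.0 on mm10, per the submitters' processing notes). The deposited counts are raw whole numbers. The genes and the lists of other genes were chosen with earlier results of these data known. The deposited barcodes already ran from 400 or 401 genes up to a maximum of 5994 to 5998 genes in every library. Nuclei with more genes may thus be missing, which bears on the deepest bins and classes. Nuclei with at least 500 genes and at most 5% mitochondrial UMIs were kept. A nucleus joined a class with UMIs of at least 3 of 8 markers of it and at least 2 more than of any other of 12 lists. No doublet caller was run, and nuclei with a smaller lead over a second list stayed out. Many kept nuclei were at the cut, with 3 own markers or a lead of 2. In dentate granule nuclei these made up 14.8%, 28.4%, 22.2% and 19.8% in wild type, tKO, aKO and nKO, and in CA1 nuclei 39.1%, 55.4%, 44.8% and 40.9%. Counts were summed per library and class. Ratios used a pseudocount of 1 and genes with at least 100 UMIs in the class, with exact 95% intervals (Poisson, conditional binomial). Classes were compared with edgeR 4.0.16 (quasi-likelihood, TMM, filterByExpr, library as a block, Benjamini-Hochberg) in R 4.3.3. Genes named are the 3 highest and 3 lowest ratios per class and knockout, the 5 largest and smallest called fold changes per class comparison, and 12 fixed members. Some genes that this rule names are not reported here. Scripts were tested on simulated data. GENCODE M21 gave positions and RefSeq gave promoters. Total depth ran from 81623644 to 193307038 UMIs. Alternatives are in the closing section.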

Additional observations from a re-analysis of the deposited data

Results flagged for a closer look

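Over 44 sets of 4 libraries, 2 held a library far from the other 3 by the ratio of its gap to the whole range (above Dixon's critical value at 95%), and chance flags about 1 in 20. For Rpl35 in CA1 against dentate granule nuclei the ratio was 0.903. The log2 difference was -0.84 in wild type and -0.22, -0.27 and -0.21 in tKO, aKO and nKO. Without wild type the fold change was -0.17 and no longer passed by edgeR. For Rpl4 in inhibitory against dentate granule nuclei the ratio was 0.920. The log2 difference was -0.58, -0.59 and -0.57 in wild type, tKO and aKO and -0.84 in nKO. Rpl4 passed under every alternative run, between -0.59 and -0.79, and at -0.70 without nKO.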

How the results depend on the processing

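With 1 library per genotype the differences from wild type have no replicate check, and depth limits single genes with few UMIs. In dentate granule, CA1 and inhibitory nuclei, the only classes run under alternatives, the summed log2 ratio stayed below 0 under every one. For tKO, aKO and nKO in dentate granule nuclei it was -0.22, -0.48 and -0.49 with male nuclei alone, -0.22, -0.42 and -0.47 without mitochondrial UMIs, and -0.29, -0.52 and -0.60 with TMM factors. It was -0.47 and -0.67 for tKO and aKO at 4000 to 8000 UMIs, and -0.59 for aKO as a mean share per nucleus. In CA1 nuclei it was -0.044, -0.17 and -0.28 (male), -0.49, -0.53 and -0.49 (4000 to 8000 UMIs) and -0.13, -0.21 and -0.33 (no mitochondrial UMI). For tKO and aKO there it was -0.20 and -0.35 as a mean share and -0.14 and -0.27 with TMM, and for tKO -0.20 under the stricter gate. Genes past 1.5-fold in either direction numbered, in dentate granule nuclei, 1, 24 and 29 (male), 2, 19 and 21 without mitochondrial UMIs, and for tKO 18 at 4000 to 8000 UMIs, 1 with TMM and 1 at up to 1% mitochondrial UMIs. In CA1 nuclei they numbered 34, 37 and 35 at 4000 to 8000 UMIs, 6 and 7 for tKO and aKO without mitochondrial UMIs, 2 and 8 under the stricter gate, 4 and 7 for aKO and nKO (male) and 1 for aKO with TMM. Without mitochondrial UMIs 6 of 75 lay below wild type in tKO and 6 in aKO (background 7.15% and 5.85%). With male nuclei 3 and 7 of 76 did in aKO and nKO (background 4.76% and 3.47%). The tKO and aKO counts without mitochondrial UMIs and the male aKO count are thus near the background. In inhibitory nuclei they numbered 27, 46 and 40 at 4000 to 8000 UMIs, 0, 6 and 16 (male), 3, 22 and 24 without mitochondrial UMIs and 0, 13 and 34 with TMM. The share of all genes was not computed with TMM, under the stricter gate or at up to 1% mitochondrial UMIs. Those counts of the family therefore carry no background. At 2-fold, which was applied to the main setting alone, the count was 0 in each of these classes and knockout libraries. The share of all genes past 2-fold was not counted, so the 2-fold counts carry no background either.

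Between classes, nuclei of 4000 to 8000 UMIs gave 34, 37 and 35 calls against dentate granule nuclei (CA1, CA2/CA3, inhibitory), all lower (background 20.7%, 17.2% and 27.8% lower). For inhibitory against CA1 they gave 5, nuclei without mitochondrial UMIs 11 and scaling by total UMIs 64 of 76 calls. Over all genes 6601 of 13534, 7566 of 13672 and 11421 of 16474 were called in these settings. The counts of 5 and 11 thus lie under the background. Inhibitory against dentate granule nuclei gave 57 calls without mitochondrial UMIs and 63 scaled by total UMIs. Leaving out 1 library gave 74 to 75, 76, 68 to 71 and 17 to 23 calls. Of 16419 to 16684 genes tested, 4186 to 4481, 4504 to 4771 and 5428 to 5687 were lower in the comparisons against dentate granule nuclei, where all calls in the family were lower. In inhibitory against CA1 9743 to 9982 were called, a larger share than in the family. Among the named genes, a turn of sign was counted only for ratios to wild type past 1.5-fold and for called class differences. Smaller ratios were not checked. Without mitochondrial UMIs the sign turned for Rpl27 in aKO inhibitory nuclei (0.29), and for Rps10 (-0.011) and Rpl3 (-0.0052) in inhibitory against CA1. It also turned for Rpl10 in CA1 (0.031) and inhibitory (0.0044) against dentate granule nuclei and Rpl3 (-0.015) in inhibitory against CA1 at 4000 to 8000 UMIs, and for Rps14 in inhibitory against CA1 scaled by total UMIs (0.019). The cause was not tested. Nuclei without mitochondrial UMIs, and for classes 4000 to 8000 UMIs and total scaling, were chosen after seeing the data. No paired analysis was possible because each genotype has 1 library, so the groups share fewer than 2 replicate numbers, and library is already a block between classes.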
